A study of Homo sapiens with 24 samples.

Results

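Mesoderm induction in culture was followed here between its 3 h and 6 h samples in cells labelled knockout (KO) of RBPMS. The comparison took all 6 KO libraries of these hours, 3 per hour, out of 24 libraries in the series, by their labels. The 24 libraries are mRNA sequencing libraries of HUES6, a human embryonic stem cell line, in 8 groups of 3: wild type (WT) or KO, each at 0, 3, 6 and 48 h. Cells of both genotypes were kept in FTDA, a defined stem cell medium. Mesoderm induction used 1.5 ng/ml of BMP4 together with 1.5 µM of CHIR, per the labels, which call the 0 h samples controls. The labels do not say how the knockout was made, whether the KO cells are 1 clone, or whether the 3 libraries of each group are separate cultures. The p-values and standard errors below therefore measure the spread between libraries of a group, pooled over all 8 groups. This spread may be technical.

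BMP4 is a secreted growth factor whose receptors phosphorylate SMAD proteins, and CHIR inhibits the kinase GSK3, which stabilises beta-catenin and lets TCF and LEF factors activate WNT target genes. In the embryo these signals, with NODAL and FGF, turn on the T-box factors EOMES and TBXT in the primitive streak, from which mesoderm and endoderm arise. RBPMS encodes an RNA-binding protein that shuttles between nucleus and cytoplasm. Immediate early genes are those that respond to signals without new protein synthesis.

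Levels are CPM, a gene's reads scaled to the library's total and not divided by gene length, and are given in the order of library numbers 1, 2 and 3. A change is the fitted difference of log2(CPM + 0.25) at 6 h minus 3 h, with its standard error, and a fold is 2 to the power of that difference. The 0.25 understates the change of genes with low levels. A gene was called when the adjusted p of limma was under 0.05, and only called genes are said to rise or fall. Where a call ended when 1 library was left out, the value in parentheses after that library is the adjusted p without it. Counts for a gene list are of the members tested. The 6 libraries held 29896358 to 46737473 reads, so 3 reads, the limit that a count of 0 allows, were worth 0.0642 to 0.1003 CPM. This limit covers counting error only.

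One library stood apart. KO 3 h library 3 correlated with the other 3 h libraries at 0.988 to 0.989 over log2 levels of all genes tested, against 0.996 between those and 0.997 between KO 6 h libraries. Messenger RNAs of ribosomal proteins took 3.5% of its reads, against 6.15% and 6.47% in the other 3 h libraries and 6.16% to 6.19% at 6 h. The main counts are given with and without it. RBPMS itself read 93.1, 90.5 and 104 CPM at 3 h and 101, 96.8 and 102 CPM at 6 h, and the hours overlapped (0.10 ± 0.08, adjusted p = 0.439). In WT libraries it was at 105, 105 and 107 CPM at 3 h and 109, 108 and 101 CPM at 6 h. Its mRNA was thus present in libraries of both labels, and how the knockout was made is not given, so these levels do not check the KO label. The paralog RBPMS2 was not called with all libraries (0.12 ± 0.12, adjusted p = 0.52) and was higher without KO 3 h library 3 (0.33, adjusted p = 0.0144). The stem cell factor POU5F1 (OCT4) read 1899.8, 1982 and 2131 CPM at 3 h and 1798, 1897 and 1876 CPM at 6 h, and LIN28A lay between 2511 and 3004 CPM in the 6 libraries. Of markers of other cells, DCN and LUM, which define fibroblasts, were at 0 to 0.0856 CPM, while POSTN was at 2.01 to 3.31 CPM. PTPRC, CD34 and CDH5 of blood and endothelium were at 0.201 to 1.17 CPM. THY1, also a fibroblast marker but expressed by human stem cells, was at 349 to 415 CPM.

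Between 3 h and 6 h, transcripts of many primitive streak, WNT, BMP and immediate early genes fell in KO libraries, and those of a part of the cholesterol synthesis, cell cycle and chaperone genes rose. Of 19835 genes tested, 1521 were higher at 6 h (7.67%) and 2209 lower (11.1%). At least 1.5-fold, 474 rose and 1212 fell, and at least 2-fold 78 rose and 290 fell. In bulk RNA, fewer cells that express a gene and less RNA per cell cannot be told apart. The libraries of the hours did not overlap for 3610 of the 3730 called genes, against 37.4% of all genes tested. Without KO 3 h library 3, 1441 genes were higher (7.09% of 20322 tested) and 1548 lower (7.62%), and 1035 of the higher and 1412 of the lower genes kept their call. Higher genes were then 48.2% of the calls, against 40.8% with all libraries. The number of higher genes was 943 when KO 6 h library 2 was left out, and KO 6 h library 3 left out gave 921 higher and 1358 lower. The median change over all genes tested was -0.02.

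**Figure D1:**
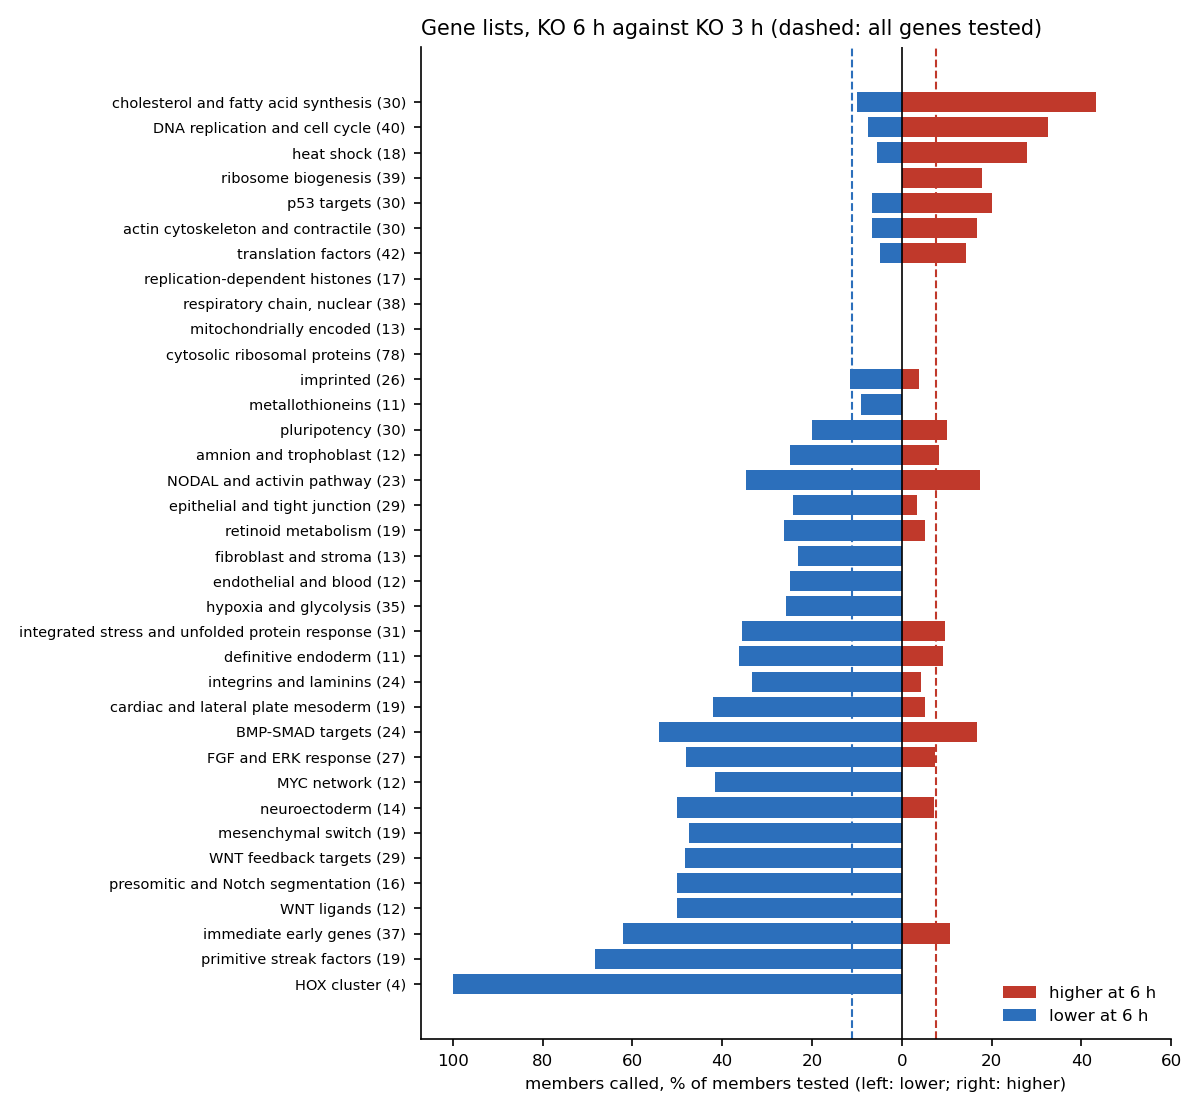
Share of each list's tested members called lower (blue, to the left) or higher (red, to the right) at 6 h in KO libraries, with the number tested in parentheses. Dashed lines mark the shares over all genes tested, 11.1% lower and 7.67% higher. Streak, WNT and immediate early lists extend far past the blue line, and cholesterol synthesis and the cell cycle past the red one.

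Most primitive streak factors fell. Of 19 tested 13 were lower and 0 higher, with a median change of -0.79 (10 lower and a median of -0.63 without KO 3 h library 3). EOMES, a T-box factor needed for endoderm and cardiac mesoderm, read 82.7, 90.9 and 102 CPM at 3 h and 8.86, 11 and 8.86 CPM at 6 h. Its 3 h libraries lay far above those of 6 h, a fall of 9.17-fold (-3.20 ± 0.14, adjusted p = 6.67e-13). EOMES (ENSG00000163508.8, chromosome 3, 27715949 to 27722711, minus strand, in the genome build hg38) had the smallest adjusted p of the genes named here. CDX2, a homeobox factor of posterior mesoderm and trophoblast (ENSG00000165556.9, chromosome 13, 27962137 to 27971139, minus strand), read 28.3, 33.3 and 42.4 CPM at 3 h and 4.95, 5.37 and 3.91 CPM at 6 h and fell 6.8-fold (-2.77 ± 0.24, adjusted p = 2.99e-08). TBXT (Brachyury, ENSG00000164458.5, chromosome 6, 166157656 to 166168700, minus strand) read 9.13, 8.05 and 12.2 CPM at 3 h and 3.09, 2.89 and 2.84 CPM at 6 h, and again no 6 h library reached the lowest 3 h one (-1.60 ± 0.14, adjusted p = 2.17e-08). EVX1, a target of BMP and WNT signals in the posterior streak, went from 4.32, 5.97 and 7.26 to 1.36, 1.22 and 1.2 CPM (-1.96 ± 0.19, adjusted p = 1.53e-07). MIXL1, a homeobox factor of mesendoderm, stood at 2.78, 4.19 and 3.28 CPM at 3 h and 1.01, 1.2 and 1.17 CPM at 6 h (-1.37 ± 0.16, adjusted p = 2.42e-06). Later factors were low at both hours: MESP1, a factor of early cardiac mesoderm, was at or under the value of 3 reads in all 6 libraries. GSC of the anterior streak was at 0.154, 0.0515 and 0.389 CPM at 3 h and listed at 0 in every 6 h library, and its call ended without KO 3 h library 3 (0.104).

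**Figure D2:**
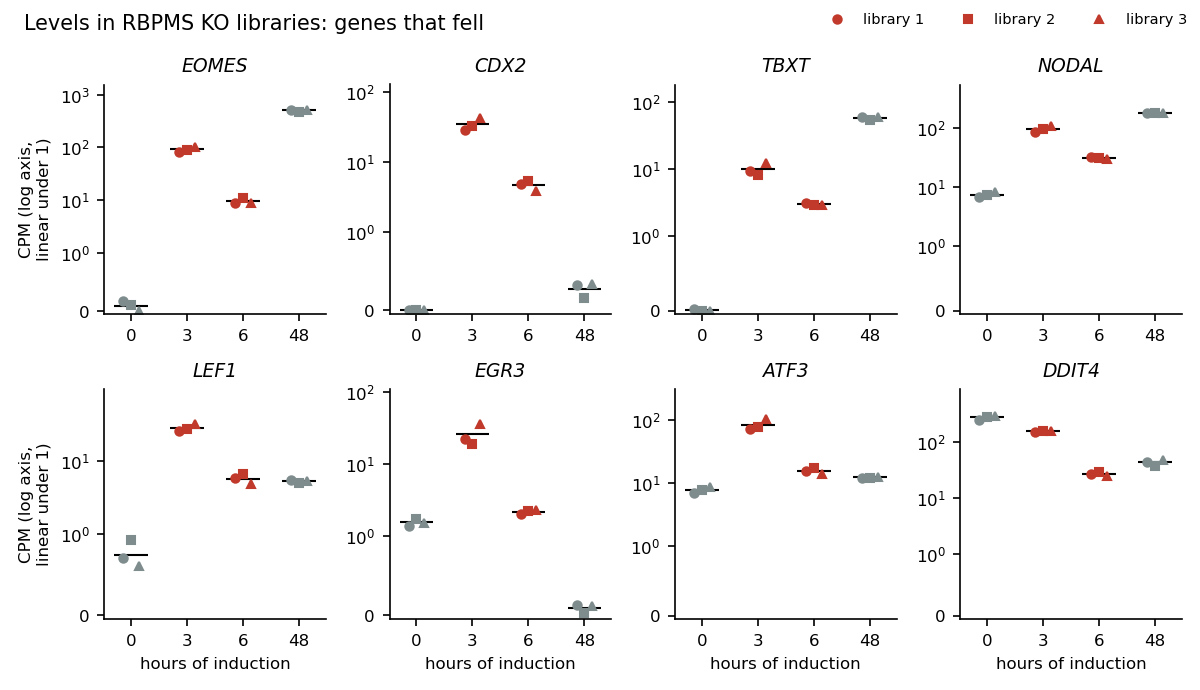
Level in CPM (log axis, linear under 1) of 8 genes that fell between 3 h and 6 h, for each KO library at 0, 3, 6 and 48 h, with the mean as a bar. EOMES stood at 82.7, 90.9 and 102 CPM at 3 h and 8.86, 11 and 8.86 CPM at 6 h, and in each panel all 3 h libraries (red, left) lie above all 6 h libraries (red, right).

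Genes of the lateral plate and heart fell in part. Of 19 members of the cardiac and lateral plate list 8 fell and 1 rose, with a median of -0.49. The growth factor BMP4 itself, as endogenous mRNA, read 10.6, 11.7 and 9.92 CPM at 3 h and 3.35, 3.7 and 2.91 CPM at 6 h (-1.59 ± 0.12, adjusted p = 5.43e-09). MSX1, a homeobox target of BMP signalling, was at 1.34, 1.62 and 2.64 CPM at 3 h and 0.141, 0.107 and 0.201 CPM at 6 h (-2.37 ± 0.25, adjusted p = 7.25e-07), the latter near the value of 3 reads. MEIS2, a homeobox cofactor of HOX proteins, went from 2.37, 2.78 and 2.64 to 0.516, 0.685 and 0.368 CPM (-1.88 ± 0.20, adjusted p = 5.58e-07). PDGFRA, a receptor of paraxial and cardiac mesoderm, went from 7.81, 7.62 and 6.5 to 3.56, 3.29 and 3.58 CPM (-0.98 ± 0.14, adjusted p = 3.42e-05). The member that rose was MYL7, an atrial myosin light chain, at 0.643, 0.849 and 0.389 CPM at 3 h and 1.2, 1.13 and 1.17 CPM at 6 h (0.76 ± 0.18, adjusted p = 0.00498), a low level at both hours. In the definitive endoderm list 4 of 11 fell and 1 rose. CER1, a secreted inhibitor of NODAL, BMP and WNT, was lower (-0.69 ± 0.10, adjusted p = 2.71e-05), as was GATA3 (-1.38 ± 0.21, adjusted p = 6.07e-05), whereas PRDM1, a transcriptional repressor, was higher (0.55 ± 0.15, adjusted p = 0.015). The PRDM1 call ended without KO 3 h library 2 (0.0898) or KO 6 h library 2 (0.0732). Of 12 amnion and trophoblast genes 3 fell, GATA3, GATA2 and TFAP2A. IGFBP3, which binds insulin-like growth factors, was higher (0.45 ± 0.16, adjusted p = 0.0477), a call that ended without any one library other than KO 3 h library 3 (0.0583 to 0.154). The summed level of the 18 genes of that list was 942 to 1029 CPM at 3 h and 998.6 to 1054 CPM at 6 h.

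WNT genes were among those that fell. In the list of WNT feedback targets 14 of 29 were lower and 0 higher (9 lower without KO 3 h library 3). Of 12 WNT ligands tested 6 were lower and 0 higher (4 lower without any one library other than KO 3 h library 2). LEF1, which binds DNA together with beta-catenin and is itself a WNT target (ENSG00000138795.5, chromosome 4, 108047545 to 108168956, minus strand), read 25.8, 27.5 and 32.3 CPM at 3 h and 5.91, 6.61 and 4.85 CPM at 6 h. That is a fall of 4.67-fold with no overlap (-2.22 ± 0.18, adjusted p = 7.85e-09). FZD10, a WNT receptor, stood at 7.99, 8.62 and 11 CPM at 3 h and 0.68, 0.813 and 1.14 CPM at 6 h (-3.06 ± 0.19, adjusted p = 1.89e-10). RNF43, a ubiquitin ligase that removes WNT receptors from the surface, dropped from 10.03, 11.8 and 12.9 to 2.11, 2.59 and 2.34 CPM (-2.15 ± 0.35, adjusted p = 0.000128). The feedback inhibitor NKD1 was lower too (-1.01 ± 0.22, adjusted p = 0.00255).

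AXIN2, the most used WNT reporter gene, read 33.6, 34.8 and 50.7 CPM at 3 h and 25.4, 22.2 and 21 CPM at 6 h with no overlap (-0.73 ± 0.19, adjusted p = 0.0089). This call ended without KO 3 h library 3 (0.0682) or KO 6 h library 3 (0.0557). SP5, a direct WNT target, was at 3.86, 3.94 and 6.61 CPM at 3 h and 2.95, 2.18 and 2.78 CPM at 6 h (-0.74 ± 0.20, adjusted p = 0.0107). The SP5 call ended without KO 3 h library 3 (0.0851) or KO 6 h library 2 (0.0627). Among ligands, WNT8A read 2.93, 2.8 and 3 CPM at 3 h and 1.69, 1.22 and 1.54 CPM at 6 h (-0.85 ± 0.15, adjusted p = 0.000331). WNT5B (-1.04 ± 0.19, adjusted p = 0.000575) and WNT8B (-1.36 ± 0.17, adjusted p = 5.72e-06) fell as well. WNT3, the ligand of the early streak, was at 14.8, 12.8 and 17.1 CPM at 3 h and 8.79, 9.74 and 9.1 CPM at 6 h (-0.64 ± 0.20, adjusted p = 0.0312). Its call ended without any one library other than KO 3 h library 2 (0.0549 to 0.126). DKK1, a secreted WNT inhibitor, was at 0.231, 0.206 and 0.0864 CPM at 3 h and 0.141, 0.128 and 0.167 CPM at 6 h and was not called (-0.07 ± 0.18, adjusted p = 0.834).

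Matches to the TCF/LEF site CTTTGAT or CTTTGAA, on either strand, are shown for 4 genes that fell, since CHIR acts through these factors; capitals mark every match, 5′ to 3′ along the gene, with 30 bases to each side of 1 match (RefSeq, GRCh38.p14).
MIXL1, chr1:226223558-226223624, plus strand: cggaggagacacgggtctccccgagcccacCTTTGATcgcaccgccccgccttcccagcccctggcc
SP5, chr2:170715198-170715264, plus strand: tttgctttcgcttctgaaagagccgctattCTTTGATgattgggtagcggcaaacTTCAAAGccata
HOXB1, chr17:48531195-48531261, minus strand: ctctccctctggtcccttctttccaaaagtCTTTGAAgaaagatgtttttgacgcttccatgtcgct
POU3F2, chr6:98834456-98834522, plus strand: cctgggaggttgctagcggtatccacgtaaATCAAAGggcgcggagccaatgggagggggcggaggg
The match of MIXL1 began 76 bases before the RefSeq start, that of HOXB1 220 and that of POU3F2 88. SP5 had matches at 148, 109 and 84 bases, of which the last 2 are in the stretch shown. CDX2, ID3 and MYCN, which fell too, held matches that are not shown. DKK1 and HAND1, which were not called, held a match as well, 95 and 46 bases before their starts.

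The same search was made over all promoters at hand. In the 250 bases upstream of the start, over 9617 genes tested that have 1 start in the RefSeq table, TCF/LEF matches were found for 4.01% of 1098 genes that fell, 3.15% of 826 that rose and 3.77% of all. Among genes that fell at least 2-fold, 9 of 137 held one (6.57%), and among those that rose at least 2-fold 4 of 36 (11.1%). The AP-1 site TGACTCA was found for 1.64% of genes that fell and 2.6% of all, the CRE site TGACGTCA for 3.19% and 3.02%, and the T-box site AGGTGTGA for 0.273% and 0.697%. For the E-box CACGTG the shares were 6.74% and 8.43%, and for the GC-rich SMAD site GGCGCC 28.8% and 25.4%. The median GC content of these stretches was 68.4% for genes that fell, 64.4% for those that rose and 65.2% for all. It was 68.8% for genes that fell at least 2-fold and 55.8% for those that rose at least 2-fold. These shares are descriptions with no test, and a match is not a bound site.

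BMP target genes split. Of 24 tested, 13 were lower and 4 higher, and the number higher was 2 when any of the 6 libraries was left out. The number lower was 9 without KO 3 h library 3 or KO 6 h library 3, and 10 to 13 without any other library. The ID genes encode inhibitors of helix-loop-helix factors and are direct SMAD targets. ID1 read 169, 201 and 343 CPM at 3 h and 108, 105 and 76.8 CPM at 6 h, and KO 3 h library 3 was the highest (-1.21 ± 0.22, adjusted p = 0.000447). ID4 fell from 139, 149.8 and 106 to 60.3, 63.4 and 61.5 CPM (-1.04 ± 0.12, adjusted p = 3.15e-06). ID3, at 481, 542 and 577 CPM at 3 h and 361, 263 and 251 CPM at 6 h, was also lower (-0.85 ± 0.25, adjusted p = 0.0203). That call ended without KO 3 h library 3 (0.0697), KO 6 h library 2 (0.0716) or KO 6 h library 3 (0.102). ID2 rose, from 55.2, 56.4 and 37 to 81.8, 84 and 78.8 CPM (0.78 ± 0.11, adjusted p = 2.93e-05), though the deposited transcript counts gave it the opposite sign (-0.85). BMPR2, the type II receptor for BMP ligands, rose as well, from 13.3, 13.6 and 14.2 to 25, 23.1 and 24.7 CPM (0.85 ± 0.11, adjusted p = 9.33e-06). MSX2, another SMAD target, was not called (-0.37 ± 0.15, adjusted p = 0.0845).

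In the NODAL and activin pathway 8 of 23 were lower and 4 higher (2 higher without KO 6 h library 3). NODAL, the ligand that maintains the streak (ENSG00000156574.5, chromosome 10, 70432315 to 70447951, minus strand), read 87.2, 95.2 and 109 CPM at 3 h and 32.2, 31.6 and 30.1 CPM at 6 h, a fall of 3-fold (-1.58 ± 0.23, adjusted p = 4.4e-05). FST, a secreted antagonist of activin, was at 75.6, 78.4 and 80.4 CPM at 3 h and 32, 29 and 31.9 CPM at 6 h (-1.29 ± 0.11, adjusted p = 1.16e-08), while the transcript counts gave 0.09. The feedback inhibitor LEFTY1 was lower (-0.98 ± 0.32, adjusted p = 0.033), a call lost without any one of the 6 libraries (0.0604 to 0.114). LEFTY2 was not called (-0.64 ± 0.23, adjusted p = 0.0574). SKIL and TGIF1, repressors of SMAD-driven transcription, were the members that rose with the smallest p. SKIL read 164, 159.7 and 125 CPM at 3 h and 243, 267 and 257 CPM at 6 h (0.82 ± 0.16, adjusted p = 0.000668). TGIF1 went from 106, 105 and 86.3 to 158, 158 and 169 CPM (0.74 ± 0.10, adjusted p = 1.2e-05).

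FGF and ERK response genes fell in part. Of 27 tested, 13 fell and 2 rose (8 lower when either KO 3 h library 3 or KO 6 h library 3 was left out). The number higher was 3 without KO 3 h library 3 and 1 without any other library. FGF19 read 17.9, 21 and 30.6 CPM at 3 h and 6.66, 7.12 and 7.29 CPM at 6 h (-1.62 ± 0.17, adjusted p = 5.13e-07). The receptor FGFR2 was at 107, 110.1 and 168 CPM at 3 h and 56.6, 60.6 and 51.5 CPM at 6 h (-1.12 ± 0.14, adjusted p = 5.68e-06). The feedback inhibitors IL17RD (-0.79 ± 0.10, adjusted p = 8.62e-06) and DUSP5, an ERK phosphatase (-0.84 ± 0.13, adjusted p = 5.34e-05), fell with them. DUSP6, the ERK phosphatase most used as a readout, was at 103, 105 and 126 CPM at 3 h and 62.1, 66.9 and 59.2 CPM at 6 h (-0.78 ± 0.22, adjusted p = 0.0167). The DUSP6 call ended without KO 3 h library 3 (0.0724) or KO 6 h library 3 (0.0639). SPRY1, also an inhibitor of this pathway, was higher at 6 h (0.41 ± 0.10, adjusted p = 0.00499). FGF8, a ligand of the streak, went from 0.925, 0.952 and 0.929 to 0.117, 0.193 and 0.134 CPM (-1.58 ± 0.24, adjusted p = 5.89e-05). FGF4 (-0.68 ± 0.27, adjusted p = 0.0802) and FGF17 (0.00 ± 0.22, adjusted p = 0.994) were not called.

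Immediate early genes had 23 of 37 members lower and 4 higher, with a median of -0.64 (20 lower and a median of -0.52 without KO 3 h library 3). EGR3, a zinc finger factor induced by ERK and calcium signals (ENSG00000179388.8), read 22.5, 19.2 and 36.4 CPM at 3 h and 1.97, 2.18 and 2.24 CPM at 6 h. Its fall, 10.4-fold, was the largest of the named genes (-3.38 ± 0.20, adjusted p = 1.08e-10), and -3.11 without KO 3 h library 3, which was its highest 3 h library. EGR1 was at 340.0, 316 and 482 CPM at 3 h and 61.3, 64.5 and 62 CPM at 6 h (-2.53 ± 0.55, adjusted p = 0.00217). ATF3, a stress-induced bZIP factor, went from 72.6, 76.4 and 102 to 15.2, 17.4 and 13.7 CPM (-2.37 ± 0.13, adjusted p = 5.08e-11). FOSB, an AP-1 subunit, was at 12.2, 12.3 and 14.4 CPM at 3 h and 3.21, 2.93 and 2.64 CPM at 6 h (-2.03 ± 0.17, adjusted p = 2.26e-08). FOS, another one, fell from 43.9, 43.9 and 56.5 to 17.4, 16 and 16 CPM (-1.48 ± 0.40, adjusted p = 0.0117). Members that rose were led by SGK1, a kinase induced by serum and glucocorticoids, at 12.3, 13.5 and 14 CPM at 3 h and 32.7, 32.5 and 31.8 CPM at 6 h (1.31 ± 0.12, adjusted p = 4.7e-08). CCN2, a target of YAP and TGF-beta, rose as well (0.63 ± 0.13, adjusted p = 0.00168).

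Notch and segmentation genes had 8 of 16 lower and 0 higher (5 lower with KO 3 h library 3 left out, and 4 with KO 6 h library 3 left out). NRARP, a feedback inhibitor of Notch, read 54.3, 64.3 and 96.5 CPM at 3 h and 16.9, 17.9 and 14 CPM at 6 h (-2.05 ± 0.16, adjusted p = 4.83e-09). The ligand JAG1 (-0.89 ± 0.16, adjusted p = 0.000371) and the target HEY1 (-1.05 ± 0.18, adjusted p = 0.000289) fell too. HES4 was at 2.31, 2.01 and 9.12 CPM at 3 h and 1.2, 0.963 and 0.87 CPM at 6 h, so that 1 library, KO 3 h library 3, stood far above the rest (-1.57 ± 0.37, adjusted p = 0.00395, and -0.91 without it). Of 32 HOX genes only 4 had enough reads to be tested, and all 4 fell. HOXB1, a hindbrain and posterior mesoderm patterning factor, was at 1.83, 1.72 and 1.75 CPM at 3 h and 0.609, 0.471 and 0.401 CPM at 6 h (-1.43 ± 0.21, adjusted p = 3.33e-05). HOXB2 (0.231, 0.283 and 0.216 CPM at 3 h and 0.0703, 0.0214 and 0.1 CPM at 6 h) and HOXA10 (0.308, 0.154 and 0.281 CPM at 3 h and 0.0234, 0.0214 and 0 CPM at 6 h) were close to the value of 3 reads. A filter on reads over all 8 groups decided which members were tested, so this count is no measure of the cluster as a whole.

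Retinoid genes had 5 of 19 lower and 1 higher (3 lower without KO 3 h library 3, KO 6 h library 1 or KO 6 h library 3). CYP26A1, the enzyme that degrades retinoic acid, read 12.4, 11.5 and 11.7 CPM at 3 h and 4.78, 5.16 and 5.39 CPM at 6 h (-1.14 ± 0.21, adjusted p = 0.000548), and CYP26B1 fell with it (-1.45 ± 0.22, adjusted p = 7.12e-05). The member that rose was the receptor RXRA (0.39 ± 0.13, adjusted p = 0.0447), a call that ended without any one library other than KO 3 h library 3 (0.081 to 0.146). Neuroectoderm genes had 7 of 14 lower and 1 higher. OTX2, a homeobox factor of forebrain and of primed stem cells, was at 18.1, 26 and 15.9 CPM at 3 h and 8.44, 9.63 and 8.63 CPM at 6 h (-1.08 ± 0.14, adjusted p = 7.31e-06). SOX3, a relative of SOX2, fell from 29.6, 32.6 and 32.7 to 13.6, 12.8 and 11.8 CPM (-1.26 ± 0.17, adjusted p = 1.5e-05). SOX2, the only member that rose, also serves pluripotency and stood at 177, 182 and 133 CPM at 3 h and 216, 230.4 and 204 CPM at 6 h (0.45 ± 0.11, adjusted p = 0.0061). The summed level of the 18 neuroectoderm genes with an identifier was 1214 to 1252 CPM at 3 h and 1141 to 1221 CPM at 6 h.

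Among genes of the switch from epithelium to mesenchyme, members of both sides fell. In the mesenchymal list 9 of 19 were lower and 0 higher. ZEB2, a repressor of CDH1, read 7.89, 10.04 and 10.5 CPM at 3 h and 0.914, 1.16 and 0.636 CPM at 6 h, a fall of 8.4-fold (-3.07 ± 0.21, adjusted p = 1.1e-09). PRRX1, a homeobox factor of mesenchyme (-1.70 ± 0.16, adjusted p = 7.59e-08), TCF4, an E-protein (-0.81 ± 0.08, adjusted p = 2.72e-07), and SNAI1 (-0.68 ± 0.14, adjusted p = 0.00137) were lower, too. In the epithelial list 7 of 29 were lower and 1 higher. The junction protein CGN was at 56.3, 58.2 and 92.5 CPM at 3 h and 34.2, 34.2 and 31.3 CPM at 6 h (-0.97 ± 0.13, adjusted p = 1.55e-05), and TJP3, another one, was also lower (-1.04 ± 0.21, adjusted p = 0.00104). The claudin CLDN12 was higher (0.36 ± 0.12, adjusted p = 0.0372), a call that ended without KO 3 h library 3 (0.239), KO 6 h library 1 (0.077), KO 6 h library 2 (0.0917) or KO 6 h library 3 (0.121). CDH1, which encodes E-cadherin, was at 399, 425 and 511 CPM at 3 h and 352, 369 and 342 CPM at 6 h and was not called (-0.28 ± 0.13, adjusted p = 0.133). EPHA4, an ephrin receptor outside these lists, went from 89.3, 90.3 and 105 to 15.1, 14.1 and 14.6 CPM (-2.64 ± 0.13, adjusted p = 4.23e-12). Under the naming rule it was among the 12 largest falls, with FILIP1L (-2.62 ± 0.15, adjusted p = 4.18e-11), the long noncoding RNA LINC00461 (-3.01 ± 0.28, adjusted p = 7.87e-08) and ARHGAP20 (-2.45 ± 0.19, adjusted p = 4.83e-09).

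In a further pair of lists the count moved with the library that stood apart, as it did in several lists given above. Of 24 integrins and laminins 8 were lower and 1 higher, but 2 were lower without KO 3 h library 3. With KO 6 h library 2 left out 3 were lower, and 4 with KO 6 h library 1 or 3 left out. LAMA5, a laminin chain, shows the pattern, at 60.5, 55.9 and 126 CPM at 3 h and 46.7, 43.9 and 40.6 CPM at 6 h (-0.74 ± 0.19, adjusted p = 0.00951), a call that ended without KO 3 h library 3 (0.0549), with a log2 difference of -0.37. With KO 3 h library 1 or 2 left out 2 of the list were higher. ITGB8, an integrin subunit that activates latent TGF-beta, rose in either case, from 3.73, 3.96 and 3.48 to 7.27, 8.3 and 8.86 CPM (1.11 ± 0.16, adjusted p = 2.92e-05). Of 13 fibroblast and stroma genes 3 were lower, VIM (-0.60 ± 0.13, adjusted p = 0.00182, and 0.08 by transcript counts), PDGFRB (-0.59 ± 0.15, adjusted p = 0.00693) and COL5A1 (-0.70 ± 0.19, adjusted p = 0.0105). The PDGFRB call ended without KO 3 h library 3 (0.0522) and the COL5A1 call ended without KO 3 h library 3 (0.0756), which leaves 1 lower. In this list 5 were lower and 1 higher without KO 3 h library 2. The summed level of the 16 genes of this list was 706 to 847 CPM at 3 h and 663 to 675 CPM at 6 h, with KO 3 h library 3 the highest. Of 12 endothelial and blood genes 3 fell, TAL1 (-1.38 ± 0.19, adjusted p = 1.55e-05), RUNX1 (-0.79 ± 0.17, adjusted p = 0.00183) and KDR, also a marker of lateral mesoderm, and 0 rose (1 without KO 3 h library 2). The summed level of the 13 genes of that list was 103 to 151 CPM at 3 h and 73.8 to 76.2 CPM at 6 h, while PTPRC, CD34 and CDH5 stayed at the low levels given above. What part such markers have in the other results was not tested.

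Stress and hypoxia genes fell in part. Of 31 genes of the integrated stress and unfolded protein responses 11 fell and 3 rose (1 rose without KO 3 h library 3). DDIT4, an inhibitor of mTORC1, read 152, 159 and 156 CPM at 3 h and 27.1, 29.4 and 24.7 CPM at 6 h, a fall of 5.58-fold with no overlap (-2.48 ± 0.19, adjusted p = 4.91e-09). CHAC1, which degrades glutathione and is induced by ATF4, went from 104, 107 and 92.3 to 21.7, 22.4 and 18.6 CPM (-2.23 ± 0.21, adjusted p = 1.02e-07). SESN2, a sensor of leucine that is also a p53 target, stood at 91.6, 89.2 and 145 CPM at 3 h and 40.5, 44.5 and 36.8 CPM at 6 h (-1.35 ± 0.18, adjusted p = 8.78e-06). Of the members that rose, ATF5, a bZIP factor of the same response, went from 44.8, 41.7 and 30.9 to 62.2, 59.8 and 58.7 CPM (0.67 ± 0.17, adjusted p = 0.00606).

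In the hypoxia and glycolysis list 9 of 35 were lower and 0 higher (1 higher without KO 3 h library 3). BHLHE40, a transcriptional repressor, read 62.8, 54.4 and 87.8 CPM at 3 h and 21.9, 21.7 and 22.9 CPM at 6 h (-1.55 ± 0.17, adjusted p = 7.98e-07). VEGFA, the angiogenic growth factor, was at 69.3, 54.8 and 93.4 CPM at 3 h and 31.3, 29.2 and 29.1 CPM at 6 h (-1.20 ± 0.13, adjusted p = 8.49e-07). PFKFB4, which makes the activator of phosphofructokinase, fell from 26.8, 32 and 36.5 to 11.3, 12.4 and 12.2 CPM (-1.35 ± 0.15, adjusted p = 1.22e-06). In each of the 3 genes KO 3 h library 3 was the highest. SLC30A1, a zinc exporter induced by metals, was the only called member of 11 in the metallothionein list, at 356, 392.1 and 316 CPM at 3 h and 80.8, 86.9 and 80.2 CPM at 6 h (-2.06 ± 0.15, adjusted p = 3.02e-09). The median of that list was 0.17, and -0.22 without KO 3 h library 3. In the MYC network 5 of 12 were lower and 0 higher (1 higher without KO 3 h library 3), led by MYCL at 15.1, 16.3 and 18.9 CPM at 3 h and 5.62, 5.97 and 4.62 CPM at 6 h (-1.56 ± 0.10, adjusted p = 5.5e-10). MYC, at 62.7, 59 and 74.8 CPM at 3 h and 45.4, 50.1 and 47.5 CPM at 6 h, fell too (-0.41 ± 0.09, adjusted p = 0.00276), as did MYCN (-0.73 ± 0.13, adjusted p = 0.000263).

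Fewer genes rose at least 2-fold than fell. The largest rise among the named genes was that of MYOCD, a coactivator of serum response factor in heart and smooth muscle, at 1.77, 1.05 and 1.77 CPM at 3 h and 7.59, 6.18 and 7.83 CPM at 6 h (4.36-fold, 2.12 ± 0.35, adjusted p = 0.000173). DOCK4, an activator of the GTPase RAC (ENSG00000128512.15, chromosome 7, 111726110 to 112206411, minus strand), read 29.6, 26.2 and 39.2 CPM at 3 h and 99.3, 105 and 95.4 CPM at 6 h, so the 6 h libraries lay far above all 3 h ones (1.71 ± 0.15, adjusted p = 4.37e-08). KLF12, a transcriptional repressor, went from 31.9, 26.5 and 31.5 to 69.96, 75.3 and 76.1 CPM (1.34 ± 0.10, adjusted p = 3.95e-09). HAS2, which makes hyaluronan, the matrix through which mesoderm migrates, was at 31.5, 31.2 and 19.2 CPM at 3 h and 64.6, 59.4 and 73 CPM at 6 h (1.32 ± 0.18, adjusted p = 2.08e-05). NRXN3, a synaptic adhesion protein, read 1.39, 0.952 and 1.75 CPM at 3 h and 4.87, 4.79 and 5.55 CPM at 6 h (1.79 ± 0.18, adjusted p = 1.98e-07). DHRS2, a short-chain dehydrogenase, was at 19.1, 17.7 and 13 CPM at 3 h and 46.6, 44.1 and 45.6 CPM at 6 h (1.49 ± 0.31, adjusted p = 0.00151). The other 6 of the 12 largest rises were GABPB2, PEX5L, SGK1, ARAP2, CUX2 and HECW2, with changes from 1.25 to 1.40.

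**Figure D3:**
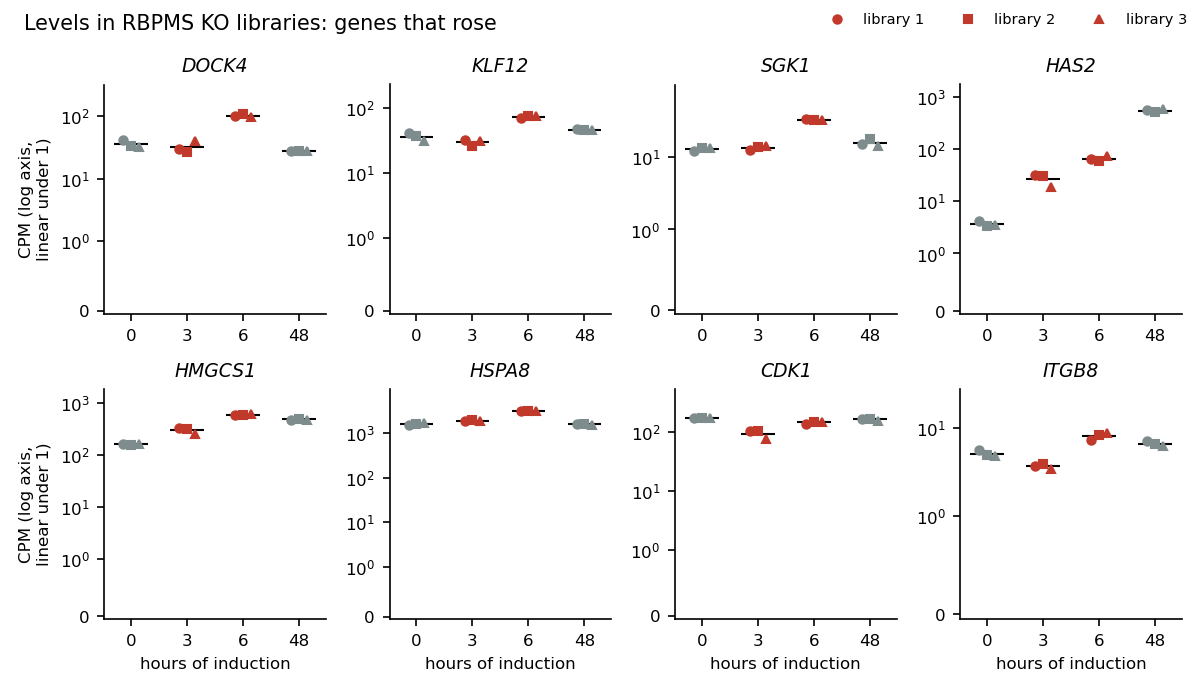
Level in CPM (log axis, linear under 1) of 8 genes that rose between 3 h and 6 h, for each KO library at 0, 3, 6 and 48 h, with the mean as a bar. DOCK4 stood at 29.6, 26.2 and 39.2 CPM at 3 h and 99.3, 105 and 95.4 CPM at 6 h, and in each panel all 6 h libraries (red, right) lie above all 3 h libraries (red, left).

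Of the 36 lists, that of cholesterol and fatty acid synthesis had the largest share of members that rose, 13 of 30 against 3 lower, and 11 to 13 rose with any of the 6 libraries left out. HMGCS1, a synthase of the early pathway, read 330.3, 308 and 251 CPM at 3 h and 591, 577 and 605 CPM at 6 h, a rise of 2.05-fold with no overlap (1.04 ± 0.13, adjusted p = 7.2e-06). MSMO1, a sterol oxidase that acts late in the pathway, rose from 103, 97.7 and 72.7 to 178, 174 and 185 CPM (1.02 ± 0.11, adjusted p = 8.81e-07). IDI1, an isomerase of isoprenoid units, rose from 79.7, 79 and 57.2 to 134, 139 and 135 CPM (0.96 ± 0.13, adjusted p = 9.18e-06). The members that fell include SREBF1, which encodes a factor that activates lipid synthesis genes, at 68.7, 64.3 and 124 CPM at 3 h and 51.2, 51.8 and 49 CPM at 6 h (-0.65 ± 0.19, adjusted p = 0.0189). KO 3 h library 3 was its highest, and the call ended without KO 3 h library 3 (0.153), KO 6 h library 1 (0.0528) or KO 6 h library 3 (0.0712). Of the fatty acid genes in the list, FASN (-0.60, adjusted p = 0.048) and FADS2 (-0.22, adjusted p = 0.033) fell. ELOVL6 rose (0.22, adjusted p = 0.0303), and ACLY, SCD and FADS1 were not called. The FADS2 call ended without KO 3 h library 2 (0.0806), KO 6 h library 1 (0.149), KO 6 h library 2 (0.0662) or KO 6 h library 3 (0.161). For FASN and ELOVL6 such values are not given here. The count of lower members of the list was 5 without KO 3 h library 1, 1 without KO 3 h library 3 or KO 6 h library 2, and 0 when KO 6 h library 1 or 3 was left out.

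In the list of DNA replication and cell cycle genes 13 of 40 rose and 3 fell (7 rose without KO 6 h library 2). CDK1, the kinase that drives mitosis, read 103, 103 and 75.2 CPM at 3 h and 139.7, 151 and 149 CPM at 6 h (0.70 ± 0.10, adjusted p = 2.42e-05). GINS1, a subunit of the replicative helicase, was at 94.7, 102 and 85.7 CPM at 3 h and 136, 136 and 138 CPM at 6 h (0.58 ± 0.08, adjusted p = 1.74e-05). CCND1, the G1 cyclin and a WNT target, went down, from 416, 437 and 472 to 283, 282 and 265 CPM (-0.64 ± 0.13, adjusted p = 0.00115), as did the checkpoint kinase BUB1 (-0.50 ± 0.07, adjusted p = 3.42e-05). Of 18 heat shock genes 5 rose and 1 fell (3 rose without KO 6 h library 2). The number that fell was 2 without KO 3 h library 1 or 2. FKBP4, the 1 that fell, lost its call without KO 3 h library 3 (0.0733), KO 6 h library 1 (0.0648), KO 6 h library 2 (0.0515) or KO 6 h library 3 (0.131). HSPA8, the constitutive HSP70 chaperone (ENSG00000109971.9, chromosome 11, 123057489 to 123063230, minus strand), read 1915, 1949 and 1836 CPM at 3 h and 3174, 3104 and 3214 CPM at 6 h (0.77 ± 0.10, adjusted p = 8.89e-06). Its cochaperone DNAJA1 went from 314, 323 and 312 to 424, 436 and 423 CPM (0.47 ± 0.10, adjusted p = 0.00177). HSPA1A and HSPA1B, near-identical copies whose reads the counting may have split, were both higher (0.48 ± 0.14, adjusted p = 0.0204; 0.57 ± 0.13, adjusted p = 0.00393). The HSPA1A call ended without KO 3 h library 2 (0.0601) or KO 6 h library 2 (0.0638).

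Ribosome biogenesis genes rose in 7 of 39 cases and fell in 0 (3 rose with KO 6 h library 2 left out, 4 with KO 6 h library 3 left out). POLR1C, a subunit of RNA polymerases I and III, was at 41.5, 43.5 and 27.5 CPM at 3 h and 59.6, 56.3 and 59.9 CPM at 6 h (0.70 ± 0.12, adjusted p = 0.000199). WDR75, needed for ribosomal RNA transcription, was at 124, 127 and 122 CPM at 3 h and 149, 155 and 164 CPM at 6 h (0.37 ± 0.07, adjusted p = 0.000386, and -0.22 by transcript counts). Of 42 translation factors 6 rose and 2 fell. Without KO 3 h library 3, KO 6 h library 1 or KO 6 h library 3 the number that rose was 3, and 2 without KO 6 h library 2. The number that fell was 1 without KO 6 h library 1 or 3. With all libraries, 7.67% of all genes tested rose and 11.1% fell. EIF5, which selects the start codon, went from 329, 329.9 and 389 to 487, 492 and 501 CPM (0.54 ± 0.09, adjusted p = 0.000173). EIF4G3 fell (-0.48 ± 0.09, adjusted p = 0.000645). Among 30 p53 targets 6 rose and 2 fell. The number that rose was 4 without KO 3 h library 1 or any one 6 h library. It was 7 without KO 3 h library 2 or 3. The death receptor FAS was at 10.7, 10.1 and 8.67 CPM at 3 h and 18.1, 19 and 19.9 CPM at 6 h (0.98 ± 0.20, adjusted p = 0.00149). SESN1, a sestrin, went from 39.1, 38 and 38.5 to 55.7, 62.5 and 62.8 CPM (0.68 ± 0.09, adjusted p = 1.01e-05). DDB2, which recognises DNA damage by ultraviolet light, was lower (-0.46 ± 0.10, adjusted p = 0.00302). Of 30 actin and contractile genes 5 rose and 2 fell. The number that rose was 3 without KO 3 h library 1 or 2, and 2 without any one 6 h library. The number that fell was 1 without KO 3 h library 3 or any one 6 h library and 3 without KO 3 h library 2.

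Of 78 cytosolic ribosomal protein genes 0 were called, although their median change was 0.37, and 0.01 without KO 3 h library 3. With KO 3 h library 1 left out 8 were higher, and 28 with KO 3 h library 2 left out. At an unadjusted p under 0.05 the count was 14, and edgeR and DESeq2 called 0. Of 38 nuclear genes of the respiratory chain 0 were called (median 0.21, -0.01 without it; 3 at an unadjusted p under 0.05), but 2 were higher when KO 3 h library 1 was left out, and 6 when KO 3 h library 2 was. By limma, edgeR and DESeq2 0 were called of 13 mitochondrially encoded genes (0.17, 0.00; 0 at an unadjusted p under 0.05) and of 17 replication-dependent histone genes tested (0.05, -0.14; 1), whose RNAs mostly lack a poly(A) tail.

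The pluripotency list had 3 of 30 higher and 6 lower, and its median was -0.01. Without KO 3 h library 3 it had 2 higher and 4 lower, with a median of 0.04. POU5F1 (-0.07 ± 0.11, adjusted p = 0.708) and DPPA4 (0.04 ± 0.11, adjusted p = 0.852) were not called. NANOG, at 82.8, 87.8 and 63.6 CPM at 3 h and 83.6, 81.2 and 81.1 CPM at 6 h, overlapped between the hours (0.12 ± 0.11, adjusted p = 0.479). ZFP42 (REX1) was at 24.9, 25.8 and 22.2 CPM at 3 h and 30.9, 30.4 and 30.3 CPM at 6 h and was not called either (0.36 ± 0.18, adjusted p = 0.168). KLF5, a zinc finger factor, fell from 36.4, 42 and 37.4 to 21.1, 20.48 and 19.6 CPM (-0.87 ± 0.11, adjusted p = 5.01e-06). The transcription factors SALL1 (-0.86 ± 0.12, adjusted p = 2.28e-05) and NR5A2 (-0.80 ± 0.14, adjusted p = 0.000236) fell too, as did TERT, the telomerase subunit (-0.97 ± 0.19, adjusted p = 0.000839). FOXD3, a forkhead factor, was higher (0.76 ± 0.19, adjusted p = 0.00811), a call that ended without KO 3 h library 1 (0.0632). In the imprinted list 1 of 26 was higher, GRB10 (0.48 ± 0.11, adjusted p = 0.00315), and 3 were lower, ZDBF2 (-0.67 ± 0.12, adjusted p = 0.000575), PEG10 (-0.29 ± 0.08, adjusted p = 0.0104) and PHLDA2 (-0.56 ± 0.17, adjusted p = 0.0272). The PEG10 call ended without KO 6 h library 3 (0.0647), and the PHLDA2 call without any one library other than KO 3 h library 3 (0.0558 to 0.114). The number lower was 1 without KO 6 h library 3. Over all genes tested 7.67% were higher and 11.1% lower, so these counts do not set the imprinted list apart.

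**Figure D4:**
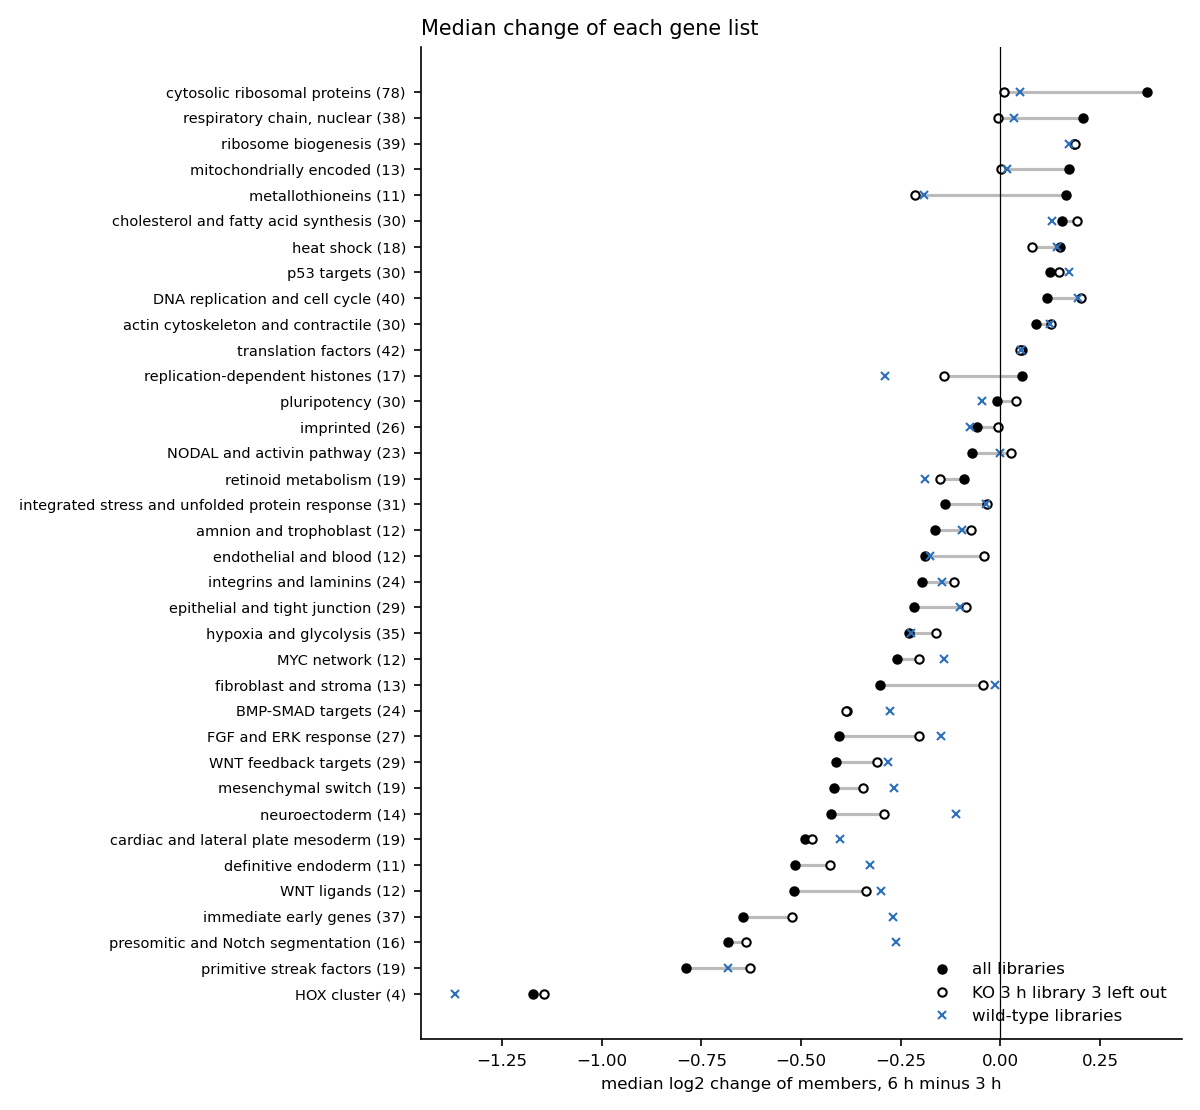
Median log2 change (6 h minus 3 h) of the tested members of each list in KO with all libraries (filled), in KO without KO 3 h library 3 (open) and in WT (crosses), with the number tested in parentheses. Cytosolic ribosomal proteins move from 0.37 to 0.01 without that library, and streak factors from -0.79 to -0.63.

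Levels of KO libraries at the other hours are given here as labelled. EOMES was at 0.177, 0.0998 and 0 CPM at 0 h and 517, 473 and 520.0 CPM at 48 h, with the 6 h level between those of 0 h and 3 h and the 48 h level the highest. TBXT was likewise at 58.9, 52.5 and 59.6 CPM at 48 h, and NODAL at 181, 185 and 181 CPM. CDX2 was listed at 0 in every 0 h library and was at 0.319, 0.163 and 0.338 CPM at 48 h. Of the 13 streak factors that fell, 10 had a 6 h mean between those of 0 h and 3 h and 3 were at or below their 0 h mean, and 9 were higher at 48 h than at 3 h. Over all 2209 genes that fell, 573 (25.9%) had a 6 h mean between those of 0 h and 3 h. Another 475 (21.5%) were at or below 0 h after a higher 3 h mean, and 1161 (52.6%) were no higher at 3 h than at 0 h. DDIT4 is of the last kind, with 249.7, 279 and 289 CPM at 0 h. Of the 1521 genes that rose, 819 (53.8%) were no lower at 3 h than at 0 h, as HAS2 was. EOMES, TBXT and NODAL were higher in libraries labelled 3 h than in those labelled 6 h in both genotypes, and their order over the hours rests on the labels. Whether the labels of 3 h and 6 h are exchanged was not tested, and an exchange would turn every direction given here.

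These hours were not tested against each other here, and the KO libraries of 0 h and 48 h differ strongly from those of 3 h and 6 h in some genes. MEG3, an imprinted long noncoding RNA, was at 998, 890.2 and 898 CPM at 0 h, 0.0771, 0.0515 and 0.0864 CPM at 3 h, 0.0938, 0.0214 and 0.1 CPM at 6 h and 226, 240.4 and 240.4 CPM at 48 h. MT1G, a metallothionein, was at 87.6, 93.9 and 104 CPM at 0 h and at most 0.407 CPM in the 3 h and 6 h libraries. In WT libraries of 3 h and 6 h MEG3 was at 82.2 to 146 CPM. The comparison of 6 h with 3 h uses the other hours only through the filter on reads, the scaling factors and the spread that the fit shares. The labels do not say whether the KO cells of 3 h and 6 h are the same stock as those of 0 h and 48 h, and this was not tested.

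The same hours in WT libraries gave changes in the same direction for most genes. Of the 3730 genes called in KO, 3653 (97.9%) had the same sign in WT, and across these genes, which are not independent replicates, r was 0.921 (0.734 over all genes tested). WT had 1339 genes higher and 1649 lower. EOMES changed by -2.84 ± 0.14 in WT, DOCK4 by 1.63 ± 0.15 and HMGCS1 by 0.99 ± 0.13. The difference between the KO and WT changes was called for 0 genes (0.0% of 19835), with 817 at an unadjusted p under 0.05. edgeR also called 0 and DESeq2 4. With array weights, which ran from 0.0477 (WT 0 h library 1) to 19.8 (KO 0 h library 2), limma called 67. It called 18 without the 3 libraries that stood apart from their groups. The median standard error of this difference was 0.233, and p-values that miss the threshold do not show that the genotypes changed alike.

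EGR3 fell more in KO than in WT by the fitted values, -3.38 ± 0.20 against -2.04 ± 0.20, a difference of -1.34 ± 0.29 (adjusted p = 0.462). The smallest adjusted p was that of NUAK2, a kinase related to AMPK, named after its value was seen. It read 22.1, 18 and 29.1 CPM at 3 h and 8.6, 8.77 and 8.96 CPM at 6 h in KO, and 16.9, 15 and 16 CPM and 11.3, 13 and 11.3 CPM in WT. Its difference was -0.92 ± 0.18 (adjusted p = 0.394). By their fitted values DDIT4 (-2.48 in KO, -1.54 in WT) and CHAC1 (-2.23 and -1.41) also fell further in KO, and NRXN3 (1.79 and 0.84) rose further, but none of these differences was called.

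**Figure D5:**
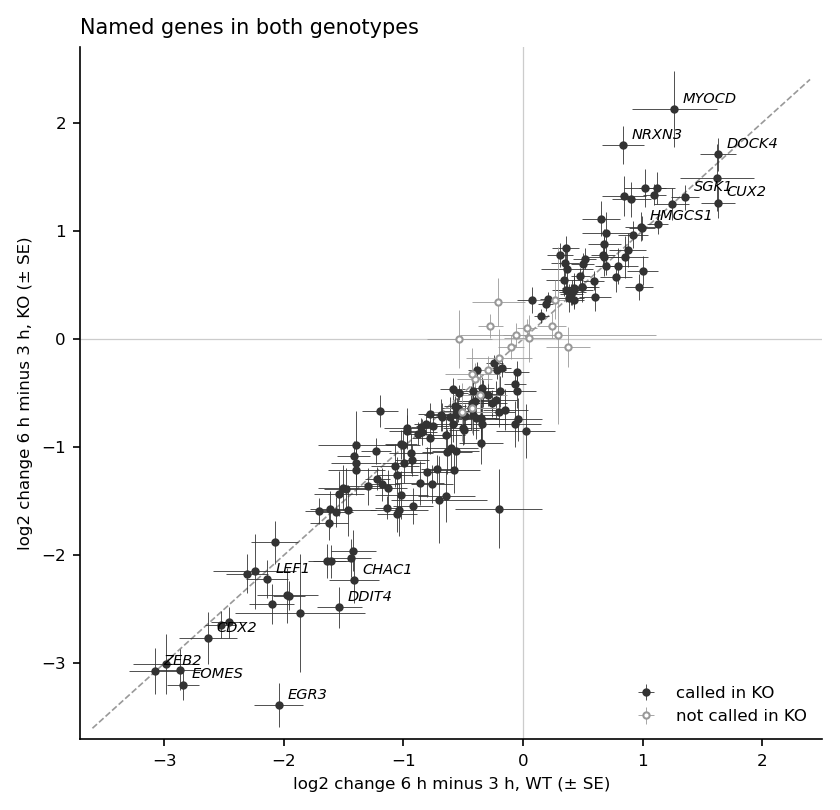
Fitted log2 change from 3 h to 6 h of each named gene in WT (horizontal axis) and KO (vertical axis), with standard errors and a dashed line of equality. Filled points were called in KO. EOMES lies near the line (-2.84 in WT, -3.20 in KO), and EGR3 lies below it.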

How the data were processed

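The authors deposited gene levels as CPM, scaled to each library's total and not divided by gene length, in a table whose sample names stand 1 column to the left of their values. Read with the names moved by 1 column, 22 of 24 columns had their highest correlation with the transcript counts of the same name. Read as it stands, 0 had. After the move, the correlation with the same name ran from 0.702, that of KO 3 h library 3, to 0.919. The transcript counts, given by the authors with no normalization, sum to 22.1% to 26.4% of the reads behind the CPM and served only as an alternative. The submitters' processing notes name hg38 and DESeq2. Aligner, annotation release and the use of strand in counting are not given in the sources used here, so reads of overlapping or antisense genes may be mixed.

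CPM values were whole multiples of 1 read (100% of values within 0.1 read), and the recovered reads numbered 29896358 to 50451908 per library. edgeR (4.0.16) supplied TMM factors and filterByExpr (minimum of 10 reads, 15 in total). limma (3.58.1, R 4.3.3) with a trend was fitted to log2(CPM/TMM factor + 0.25) of all 24 libraries in 8 groups, with contrasts of 6 h minus 3 h in KO, in WT, and their difference. Tests were two-sided with Benjamini-Hochberg adjustment within a comparison, and the fit was tested on simulated data. Symbols were found for 51996 of 57820 identifiers (89.9%), and coordinates come from GENCODE 29.

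The genes and 36 lists (927 symbols, of which 831 were tested, 64 had too few reads and 32 matched no identifier) were chosen with earlier results of these data known. The named genes are the 12 largest called changes in each direction with at least 5 CPM, no overlap and a call without KO 3 h library 3. Up to 4 called members of each list by adjusted p (and 2 of the other direction), a panel of 49 genes (48 with a value) and the called members of lists with 1 to 3 calls could be named as well. NUAK2, GATA2 and TFAP2A were named after their values were seen, and some genes the rule picks are not reported here. DESeq2 (1.42.0), other scalings, filters and pseudocounts, and libraries left out were alternatives. Python 3.11.15 made tables and figures.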

Additional observations from a re-analysis of the deposited data

How the results depend on the processing

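Counts of genes higher and lower at 6 h stayed within 1.5 times of 1521 and 2209 under RLE or upper-quartile factors, CPM as deposited, pseudocounts of 0.1 and 1, no filter, a filter of 5 CPM, edgeR and DESeq2. They were 324 and 698 by edgeR on transcript counts, 3282 and 3569 with array weights, 3015 and 3313 without the 3 libraries that stand apart (WT 0 h library 1, KO 3 h library 3, WT 48 h library 3), and 474 and 1212 at 1.5-fold. With only the groups compared they were 1099 and 1298, and 3293 and 3167 when KO 3 h library 3 was also left out. edgeR without that library gave 1329 and 1438. These last 2 alternatives were chosen after seeing the data. With 1 of the 6 libraries left out the counts ran from 921 to 1595 and from 1358 to 2312. Replicate numbers did not pair the KO libraries (correlation of deviations -0.02, 0.06 and -0.17 for numbers 1, 2 and 3, none best with its own number). With a replicate block the counts were 1463 and 2167, and 182 of 183 named genes kept their side of the threshold.

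The difference between KO and WT changes, 0 genes as reported, gave 1 higher and 3 lower by DESeq2, 16 and 51 with array weights, and 4 and 14 without the 3 libraries. It gave 1 lower with a pseudocount of 1 or only the groups compared, and from 0 to 2 lower with 1 library left out (2 without KO 3 h library 2). By edgeR on transcript counts, which miss most reads, 12 called genes changed sign: IGFBP3 (-0.542), VIM (0.0773), ID2 (-0.855), FST (0.0854), PATJ (0.382), CLDN12 (-0.316), RARG (0.0392), FKBP4 (0.0668), HK1 (1.48), WDR75 (-0.225), GNL3 (-0.0406) and EIF4A2 (0.0448); the cause was not tested. That setting kept 75 of 152 named genes on their side of the threshold, and 59 lost their call. Of 183 named genes, 18 lost their call without KO 3 h library 3, 9 without KO 3 h library 1 or 2, and 16, 17 and 20 without KO 6 h libraries 1, 2 and 3. Depth limits genes under about 0.1003 CPM, the value of 3 reads in the shallowest library.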
